A study of Bos taurus with 24 samples.

Results

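Lactoferrin (LTF, ENSBTAG00000001292) is described here as 1 gene of the 27607 gene IDs counted in liver and mammary biopsies of dairy cows. The gene was taken by its Ensembl ID, which the rule that chose it pairs with the name LTF. The deposited tables carry no gene names. The 24 RNA-seq libraries came from multiparous, pregnant Holstein cows that were not being milked, all biopsied 21 d before expected calving. Control cows lived under a constant cycle of 16 h light and 8 h dark. Phase shift cows had the same hours of light, with the cycle moved by 6 h every 3 d for 2 weeks. Each of the 4 combinations of tissue and treatment held 6 libraries from 6 cows, and 11 cows gave both tissues. The treatments were kept in separate parts of 1 barn, so place and treatment cannot be told apart.

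Lactoferrin is an iron-binding glycoprotein of the transferrin family. It is made by glandular epithelium and is also stored in the granules of neutrophils. By holding free iron it restricts bacterial growth. In cattle its concentration in mammary secretions is low during lactation and climbs after milking stops, when the udder involutes. It is one of the main host defence proteins of the dry gland. Liver takes up lactoferrin from blood and is not known as a major site of its synthesis. A biopsy mixes cell types, so fewer cells of a type and less RNA per cell cannot be told apart in these libraries. Because the tables have no gene names, markers of epithelium, neutrophils or hepatocytes could not be read, and the tissue labels were not checked against markers.

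Library totals ran from 5.05 to 13.1 M (mega reads) in mammary and from 7.68 to 26.9 M in liver. On the first principal component of each tissue, 3 libraries lay far from the rest: in mammary those of phase shift cow 21 and of control cow 26, and in liver that of phase shift cow 22. These are called the libraries that stand apart, and results are also given without them. Levels are CPM, reads scaled to the library total. Fold changes are from edgeR's quasi-likelihood test and are phase shift relative to control, with p-values adjusted over all genes tested by the Benjamini-Hochberg method.

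LTF was an abundant transcript in every dry gland. In control mammary libraries it ran from 842 CPM in cow 26 through a median of 2692 CPM to 12167 CPM in cow 23. In phase shift mammary libraries it ran from 704 CPM in cow 21 through a median of 3043 CPM to 8887 CPM in cow 24. The treatments overlapped over most of their range. Groups with no overlap at all were found for 0.167% of the genes tested in mammary. Ordered by reads within its library, without regard to gene length, LTF was between the 3rd gene, in control cow 23, and the 76th, in control cow 26.

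As a share of all counted reads, LTF took 1.22% of the mammary library of control cow 23 (95% exact Clopper-Pearson interval 1.21 to 1.23%). It took 0.0704% in phase shift cow 21 (0.0687 to 0.0721%). These intervals cover counting error only. The mean share was 0.411% in control glands (SD 0.428, n = 6) and 0.343% in phase shift glands (SD 0.287, n = 6). A few cows supplied much of the transcript. Control cow 23 alone held 49.4% of the summed CPM of its group, and phase shift cow 24 held 43.2% of its own. Together these libraries held 46.6% of the summed CPM of the 12 glands.

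**Figure D1:**
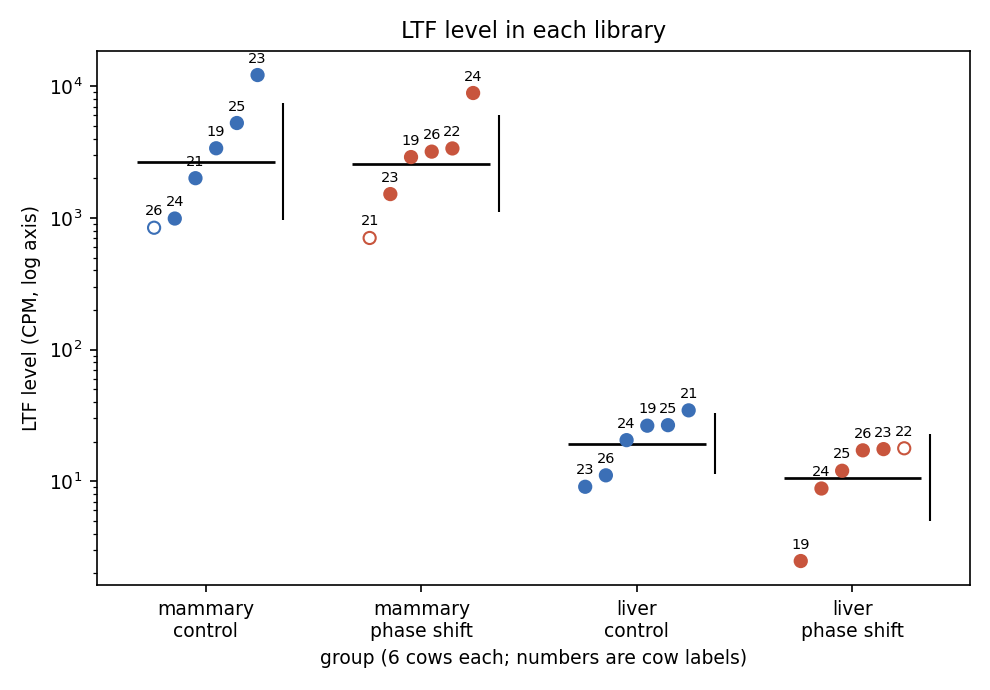
LTF level in CPM on a log axis in each library, by tissue and treatment. Each point is 1 cow with its label, open points are libraries that stand apart, horizontal bars are geometric means and vertical lines span 1 SD of log2 CPM on either side. Mammary libraries run from 704 to 12167 CPM and liver libraries from 2.47 to 34.5 CPM, with overlap between treatments in both tissues.

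In liver LTF was detected in all 12 libraries at a low level. Control livers ran from 9.07 CPM in cow 23 through a median of 23.5 CPM to 34.5 CPM in cow 21. Phase shift livers ran from 2.47 CPM in cow 19 through a median of 14.6 CPM to 17.8 CPM in cow 22. The highest phase shift liver lay below 4 of the 6 control livers, while control cows 23 and 26, at 9.07 and 11.1 CPM, lay within the phase shift range. Groups with no overlap at all were found for 0.349% of the genes tested in liver.

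These liver values rest on few reads. Phase shift cow 19 had 19 LTF reads, a share of 0.000247% (95% exact interval 0.000149 to 0.000386%), and the deepest library, phase shift cow 26, had 462. Counting error alone gives a coefficient of variation of 4.65 to 22.9% in liver libraries and of 0.388 to 1.24% in mammary libraries. The coefficients of variation between cows were larger than that. They were 46.0% in control livers, 48.7% in phase shift livers, 104% in control glands and 83.8% in phase shift glands.

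The 4 groups fell in the order mammary control, mammary phase shift, liver control and liver phase shift. Their mean levels were 4107 CPM (SD 4281), 3427 CPM (SD 2871), 21.4 CPM (SD 9.84) and 12.6 CPM (SD 6.15), with n = 6 in each. The mammary groups did not differ beyond the spread between cows, nor did the liver groups, while every mammary library lay above every liver library. The lowest gland, at 704 CPM, was 20.4-fold above the highest liver.

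LTF was higher in mammary than in liver by a log2 fold change of 6.74 (SE 0.51, adjusted p = 3.08e-11 in edgeR), averaged over treatments. That is 107-fold, with a 95% interval from 51.3 to 224-fold. Such tissue differences were common. Of 16656 genes tested, 72.8% passed the threshold of 0.05 in this comparison, 38.9% with a higher level in mammary, and for 32.6% all 12 mammary libraries lay above all 12 livers. A larger fold in favour of mammary was found for 219 genes. The difference was 125-fold without the libraries that stand apart. Libraries of 1 cow were taken as independent in this fit. With the cow as a block, over the 11 cows with both tissues, the difference was 94.5-fold (log2 6.56, SE 0.53, adjusted p = 9.28e-08 in edgeR).

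Within single cows the tissues differed by widely varying amounts. Mammary CPM was 48.1 times liver CPM in control cow 24 and 1332 times in control cow 23, with a median of 186 times over the 11 cows. The mean log2 difference was 7.11 in control cows (SD 1.77, n = 6) and 8.33 in phase shift cows (SD 1.65, n = 5). Over all 11 cows it was 7.67, a geometric mean of 203-fold, against 94.5-fold in the edgeR fit with the cow as a block. The per-cow values use library totals alone, while the edgeR folds use TMM scaling across both tissues. The part of the scaling in this gap was not tested.

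A high level in the gland did not detectably go with a high level in the liver of the same cow. Control cow 23 ranked 1st of 11 in mammary and 9th in liver. Phase shift cow 24 ranked 2nd in mammary and 10th in liver. Control cow 21, 1st in liver, ranked 8th in mammary. In contrast, control cow 25 was high in both, 3rd in mammary and 2nd in liver. Over the 11 cows Pearson's r of log2 CPM was -0.20 (two-sided permutation p = 0.562) and Spearman's rho was -0.14 (permutation p = 0.694). Without phase shift cows 19 and 24, the farthest from the median in liver, r was -0.15 (exact permutation p = 0.689). Within the 6 control cows r was -0.16 (exact permutation p = 0.739). With treatment means removed r was -0.15 (permutation p = 0.643). Without the cows that have a library standing apart r was -0.30 (exact permutation p = 0.435, n = 9). No relation between the tissues was detectable at this number of cows.

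**Figure D2:**
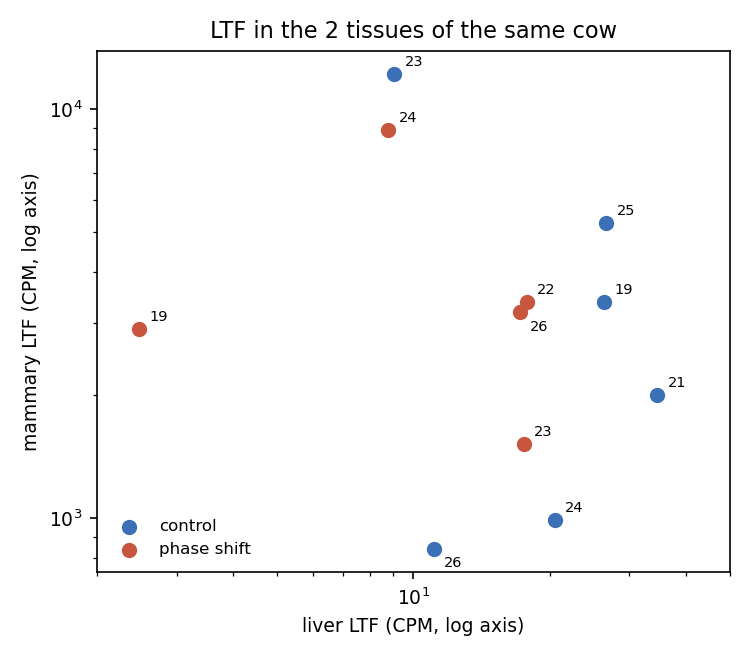
LTF in the liver (x axis, CPM, log axis) and in the mammary gland (y axis, CPM, log axis) of the 11 cows with both tissues, coloured by treatment and labelled by cow. The cows highest in mammary, control 23 and phase shift 24, are at 9.07 and 8.80 CPM in liver, among the lowest.

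Reads of LTF in liver were compared with those of other genes abundant in the gland, since libraries were multiplexed for sequencing, per the labels' protocols. Among the 60 genes with a mean of at least 1000 CPM in mammary, LTF had a mean liver level of 0.451% of its mammary level, and 6 genes had a lower percentage. Of these 6, 5 lay between 0.0220 and 0.0348%, and the other at 0.0753%. The median over the 60 genes was 24.3%. LTF ranged from 0.0657% of its mean mammary level, in phase shift cow 19, to 0.917% in control cow 21. In 12 of 12 livers it lay above each of the 6 genes, whose median was 0.0198 to 0.0412%. The highest of the 6 reached 0.183% in control cow 25, where LTF was at 0.707%. In phase shift cow 24 the highest was at 0.165% and LTF at 0.234%. The 6 genes were picked by their low mean percentage, so this is a description. The part of reads carried between libraries in the liver values was not tested.

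**Figure D3:**
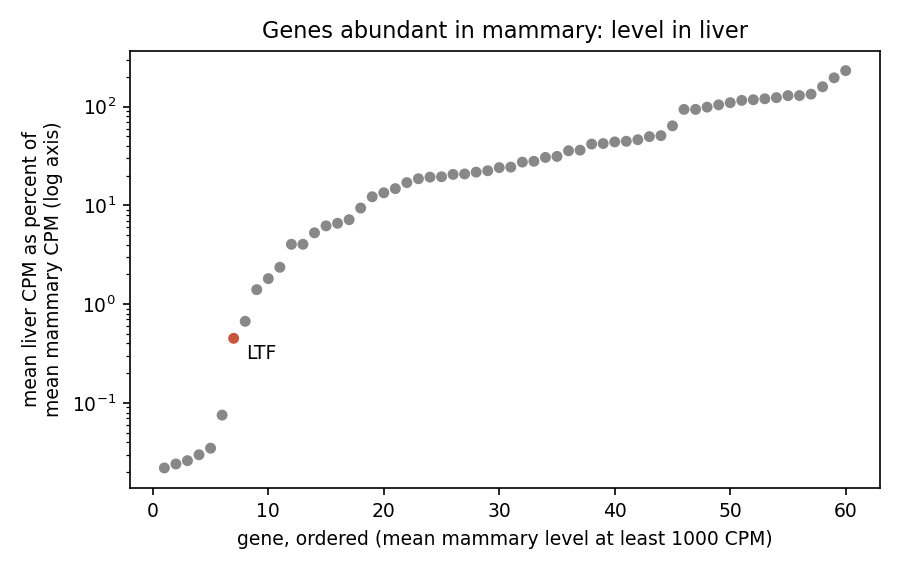
Mean liver CPM as a percentage of mean mammary CPM (log axis) for the 60 genes of at least 1000 CPM in mammary, in rising order. LTF, in red, is at 0.451%, above 6 genes of which the lowest is at 0.0220%.

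Phase shifts did not change LTF detectably in the mammary gland. The log2 fold change was -0.33 (SE 0.63, adjusted p = 0.981 in edgeR), or 0.796-fold with a 95% interval from 0.307 to 2.06. The data thus did not exclude a fall of up to 3.25-fold or a rise of up to 2.06-fold. The difference of mean log2 CPM was -0.048 (exact two-sided permutation p = 0.948, smallest possible 0.00216). The median CPM differed in the other direction, at 3043 in phase shift against 2692 in control glands. Of 15547 genes tested in mammary, edgeR called 0%, with 739 at an unadjusted p under 0.05, where chance gives about 777. On the same genes limma-voom also called 0, with 623. DESeq2, which gave an adjusted p to 22853 genes, called 0, with 985 at an unadjusted p under 0.05.

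The direction in mammary rested on 1 cow. Without control cow 23 the log2 fold change was 0.31 (SE 0.57, adjusted p = 0.945 in edgeR). Without phase shift cow 24 it was -0.83 (SE 0.62, adjusted p = 0.980), and without phase shift cow 21 it was -0.14 (adjusted p = 0.972). Without both mammary libraries that stand apart it was -0.32 (SE 0.64, adjusted p = 0.970).

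In liver LTF was lower under phase shifts by an amount within the spread between cows. The log2 fold change was -0.64 (SE 0.45, adjusted p = 0.755 in edgeR), or 0.640-fold with a 95% interval from 0.322 to 1.28. The difference of mean log2 CPM was -0.86 (exact two-sided permutation p = 0.143). Of 13752 genes tested in liver, edgeR called 0%, with 813 at an unadjusted p under 0.05, where chance gives about 688. On the same genes limma-voom called 0, with 744. DESeq2 gave an adjusted p to only 3890 genes and called 16 of them, or 0.411%. DESeq2 gave LTF a log2 fold change of -0.64 with an unadjusted p of 0.124 and no adjusted p.

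Single livers moved the size of this difference and not its sign. Without phase shift cow 19, the liver with the fewest LTF reads, the log2 fold change was -0.43 (SE 0.35, adjusted p = 0.742 in edgeR). Without phase shift cow 22, which stands apart, it was -0.80 (SE 0.47, adjusted p = 0.935).

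**Figure D4:**
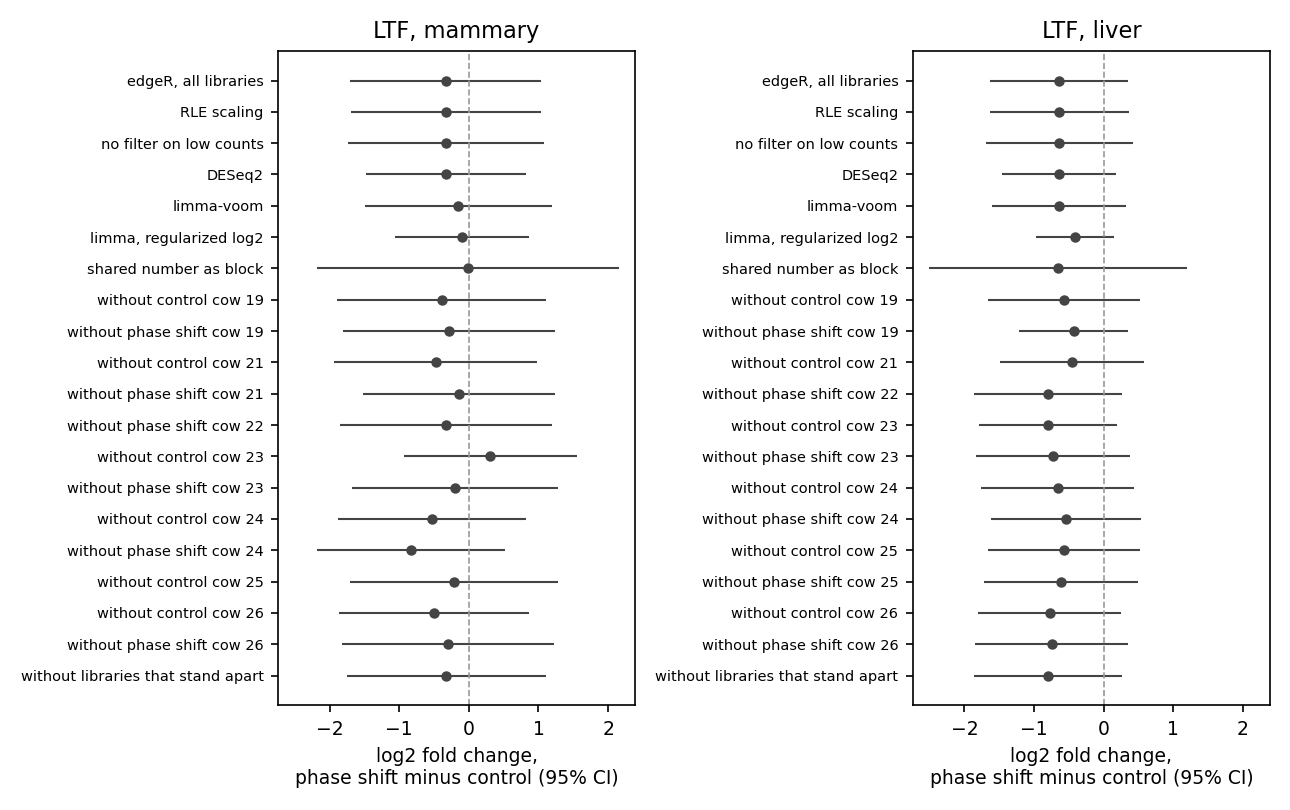
Log2 fold change of LTF under phase shifts with its 95% confidence interval, in mammary (left) and liver (right), by edgeR with all libraries, under other tools and scalings, with the shared cow number as a block, and without each library in turn. Every interval spans 0, and in mammary the point lies above 0 only without control cow 23.

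The response of LTF was not detectably different between the tissues. The mammary log2 fold change exceeded that of liver by 0.34 (SE 0.81, adjusted p = 0.968 for the interaction in edgeR), with a 95% interval from -1.32 to 2.01. With the cow as a block, over the 11 cows with both tissues, the difference was 1.02 (SE 0.89, adjusted p = 0.933 in edgeR). The same cows without the block gave 0.51 (SE 0.82, adjusted p = 0.903 in edgeR). For the interaction over all 24 libraries edgeR called 0% of 16656 genes, with 1111 at an unadjusted p under 0.05, where chance gives about 833. On the same genes limma-voom called 0, with 616. DESeq2 called 1 of the 23311 genes to which it gave an adjusted p.

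LTF varied widely between cows of the same treatment. In mammary the SD of its log2 CPM within treatments was 1.36, against a median of 0.34 over the 2056 genes with a mean of at least 100 CPM, and 43 of those genes had a larger SD. Without the libraries that stand apart the SD was 1.17, the median 0.20, and 20 genes had a larger SD. In liver the SD was 0.94 against a median of 0.23 over 8296 genes with a mean of at least 10 CPM, and 166 had a larger SD. Without the liver of phase shift cow 22 it was 0.95, and 49 had a larger SD. By this measure LTF stood at the 97.9th percentile of mammary genes and the 98.0th of liver genes, as a description of these libraries with no test.

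**Figure D5:**
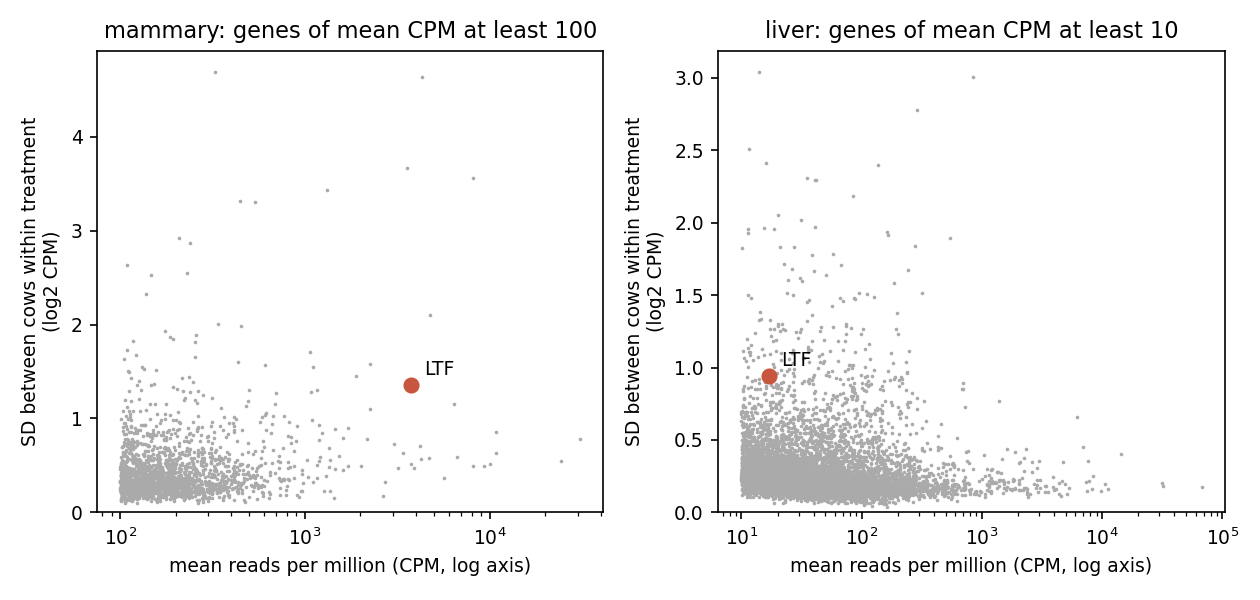
SD of log2 CPM between cows within treatments (y axis) against mean CPM (x axis, log axis) for the genes of mean CPM at least 100 in mammary (left) and at least 10 in liver (right). Each grey point is a gene. LTF, in red, is at an SD of 1.36 in mammary and 0.94 in liver, where the medians are 0.34 and 0.23.

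The mammary level of LTF moved with sequencing depth. The relations to library measures, here and in the next paragraph, were added after the LTF values were seen. Their p-values are therefore not those of planned tests. The glands with the highest LTF, control cow 23 and phase shift cow 24, had 5.46 and 5.90 M reads, while the deepest, control cow 26 at 13.1 M, had the second lowest LTF. Over the 12 glands r between log2 CPM and log2 total reads was -0.77 (permutation p = 0.00344, adjusted 0.0138 over 4 relations) and rho was -0.79 (permutation p = 0.00328, adjusted 0.0131). Without the 2 glands farthest from the median depth r was -0.79 (permutation p = 0.00728). Without the libraries that stand apart it was -0.68 (permutation p = 0.0277, adjusted 0.111), so the relation no longer passed after adjustment. Within treatments r was -0.87 in control glands (exact permutation p = 0.00556, n = 6) and -0.64 in phase shift glands (exact permutation p = 0.178, n = 6). The part of depth in the spread of LTF was not tested.

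In liver no such relation was detectable, with r = 0.21 (permutation p = 0.519). The share of counts in the 10 most abundant genes had r = -0.68 with mammary LTF (permutation p = 0.0118, adjusted 0.0237), which rested on the libraries that stand apart, since r was -0.32 without them (permutation p = 0.364). In liver this share had r = -0.13 (permutation p = 0.715).

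The genes that correlated most with LTF from gland to gland were less abundant. They were picked as extremes, on CPM without TMM scaling, and are given with no test. Among the 10767 other genes tested with a mean of at least 10 CPM in mammary, ENSBTAG00000043951 had the highest Pearson's r of log2 CPM with LTF, 0.94 over 12 libraries. It ran from 8.96 to 29.0 CPM, and its r was 0.92 without the libraries that stand apart and 0.94 without control cow 23. ENSBTAG00000012900 also had r = 0.94, with 0.95 and 0.93 in those subsets, and ran from 5.59 CPM to 48.5 CPM in control cow 23, the cow with the most LTF. The opposite pattern was seen for ENSBTAG00000004997 and ENSBTAG00000055172, with r of -0.84 for each, and both were at their lowest, 26.5 and 16.3 CPM, in control cow 23.

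High positive r was frequent in mammary. It exceeded 0.8 for 269 genes and was under -0.8 for 3, and the median over all these genes was 0.45. The points share library composition and depth. Without the libraries that stand apart 155 genes exceeded 0.8 and 52 were under -0.8, and 83 genes exceeded it both ways.

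In liver the genes most like LTF were found in the same way. Among 8295 other genes of at least 10 CPM, 5 had r over 0.8 and 3 under -0.8. The median r was 0.032, and whether these counts exceed chance was not tested. Without the liver of phase shift cow 22, 30 had r over 0.8 and 7 under -0.8. The highest were ENSBTAG00000016167 and ENSBTAG00000031631, at 0.84 and 0.83 over 12 livers, and the lowest were ENSBTAG00000021262 and ENSBTAG00000021381, at -0.83 and -0.82. As extremes picked from 8295 values, they are a description with no test. ENSBTAG00000016167 ran only from 61.3 to 87.5 CPM while LTF varied 14.0-fold. In mammary these 4 genes had r with LTF of 0.21, 0.39, 0.46 and -0.72 in the same order. The 0.39 belongs to ENSBTAG00000031631, whose mean in mammary was only 0.756 CPM, so that value rests on very few reads. The files do not pair these IDs with names.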

How the data were processed

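Total RNA was depleted of ribosomal RNA and sequenced as paired reads, per the labels' protocols. The submitters' processing notes list Trimmomatic 0.36, STAR 2.5.2b, featureCounts of Subread 1.5.2, DESeq2 and the cattle build ARS-UCD1.2. Neither the annotation release nor the strand setting is given in the sources used here. In the RefSeq annotation of another assembly, ARS-UCD2.0, LTF lies between RTP3 and CCRL2 and overlaps neither. The authors deposited raw counts per gene, normalized counts (a signal equal to the count divided by 1 size factor per library, checked on the files) and regularized log2 values.

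Raw counts were tested with edgeR 4.0.16 (R 4.3.3) by robust quasi-likelihood F tests with TMM scaling, after filterByExpr at a minimum count of 10 and minimum total of 15. The tissue difference and the interaction came from 1 fit to all 24 libraries. DESeq2 1.42.0, limma 3.58.1 and other settings were alternatives. CPM used the library total, and log2 CPM an offset of 0.5 reads. Permutation tests of treatment were exact, and those of correlations used 100000 resamples from 10 samples up. On simulated data with 200 changed genes, edgeR recovered 28.5% of 2-fold and 81.0% of 4-fold changes among 15300 and 15261 mammary genes. Among 13568 and 13555 liver genes it recovered 73.0% and 90.5%. The changed genes were drawn at random, and LTF varied more between cows than most genes. These rates therefore do not give the chance of finding a change in LTF. Tissues were paired by the cow in the sample titles. These titles name 13 cows, 6 control and 7 phase shift, where the series description has 6 per treatment.

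The gene, the lists and the libraries to leave out were chosen with earlier results of these data known. LTF was named in every library, with the 2 genes of highest and the 2 of lowest correlation per tissue. The 13 lists of symbols written for other genes of lactoferrin biology and cell types, 148 symbols, could not be used: 0 of 37063 RefSeq genes carry an Ensembl ID, so 0 matched.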

Additional observations from a re-analysis of the deposited data

Results flagged for a closer look

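Each group of 6 LTF values, in CPM and log2 CPM, and each treatment's mammary minus liver differences were searched for a cow far from the others, by whether its gap to the nearest cow exceeded Dixon's 95% critical share of the range. Of 10 sets of values 2 held such a cow, where chance gives about 1 in 20. In the mammary gland phase shift cow 24 had 8887 CPM, and the next phase shift cow had 3370 CPM, a gap of 0.674 of the group's range against a critical 0.625. On the log2 scale that cow was not singled out. In liver phase shift cow 19 had a log2 CPM of 1.34, and the next had 3.15, a gap of 0.641 of the range. On the linear scale that liver was not singled out. Values without each of these cows stand with the treatment comparisons.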

How the results depend on the processing

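The LTF difference between tissues kept its direction and passed the threshold under the 7 alternatives, at log2 6.48 to 6.97. All of these scaled the libraries by TMM or a similar factor, and none by the library total alone. On CPM the mean log2 difference within the 11 cows was larger, at 7.67, so the size of the difference depended on the scaling used. The treatment difference in mammary did not pass under any of 20, with log2 fold changes from -0.83 to 0.31 when 1 library was left out, and turned positive, at 0.31, only without control cow 23. In liver it did not pass under the 19 that gave an adjusted p, at -0.80 to -0.43 with 1 library left out. The interaction did not pass under 7 (0.33 to 1.02). Exact permutation p for treatment ran from 0.714 to 0.984 in mammary and 0.0887 to 0.197 in liver. The count of liver genes called was 0 in edgeR, 16 of 3890 in DESeq2 and 2 with the shared cow number as a replicate block. With 1 library left out it was 0 to 1 (1 without control cow 26). No label says that a control and a phase shift cow of the same number belong together. Their deviations from the group means correlated at -0.38 to 0.17 in mammary and -0.08 to 0.10 in liver. With the number as a block the log2 fold change was -0.014 in mammary (SE 0.90) and -0.66 in liver (SE 0.70). In 3 of 5 liver pairs the control library correlated best with its own number, and in 2 of 5 the phase shift library did. In mammary it was 0 of 5 either way. These values come from the data and not the design. No call on LTF changed with either block. The 95% intervals give the changes of LTF that these data do not exclude, and in liver 19 to 462 reads per library add counting error.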

Other observations

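The fall of mammary LTF with sequencing depth was set beside that of other genes, after its value was seen. Among the 10768 genes with a mean of at least 10 CPM, 1.38% had a lower r with log2 total reads than the -0.77 of LTF, where the median r was -0.44. After TMM scaling LTF had r = -0.74, the median over genes was 0.012, and 0.910% were lower. Without the libraries that stand apart r was -0.68, the median -0.14, and 1.44% were lower. These are values across genes that share libraries, given with no test.

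The scaling changes which glands are lowest in LTF. In CPM they were phase shift cow 21 and control cow 26, at 704 and 842, the libraries that stand apart. In the authors' normalized counts they were phase shift cow 21 and control cow 24, at 6746 and 7379, with control cow 26 at 9444.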
